A study of Mus musculus with 24 samples.

Results

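G protein-coupled receptors let islet cells adjust hormone release to gut hormones, lipids and nerve signals. Their transcripts were followed in dispersed mouse islet cells exposed to palmitate with or without an antisense block of a tRNA fragment. The set comprised 10 receptor genes, taken by symbol from the deposited table of 41549 genes: Glp1r, Gipr, Gcgr, Ffar1, Ffar4, Gpr119, Adra2a, Chrm3, Sstr3 and Galr1. All 10 were found, and all 10 passed the filter on low counts which left 15916 genes to test. The cells came from islets of wild-type C57BL/6NRj mice of both sexes, 12 to 14 weeks old. They were transfected with 50 pmol of an antisense oligonucleotide (ASO), either a control (Ctr) or one against the 5'tRF-Glu(CTC) fragment (αGlu). They were then kept in 1% serum with 0.5 mM palmitate bound to bovine serum albumin (PA) or with 0.75% albumin alone (BSA). Each ASO was thus combined with BSA and with PA, giving 4 groups of 6 libraries. Libraries numbered up to S12 formed batch 1 and those from S13 onward batch 2, with 3 libraries per group in either. By the study's methods, replicates of primary cells were preparations from different animals, and the groups of a replicate shared their animal. The labels do not say which libraries share one, so the main model left this out. The sources say neither what a batch is nor for how long the sequenced cells were exposed, while other experiments with ASO-treated islet cells lasted 48 h. The fragment targeted by the ASO is not a row of this mRNA table, so its level in these libraries was not analysed here.

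As background, receptors that couple to Gs (Glp1r, Gipr, Gcgr and Gpr119) raise cAMP in the beta-cell and enhance insulin release at high glucose. Receptors that couple to Gq (Ffar1 and Chrm3) act through phospholipase C and calcium, and those that couple to Gi (Adra2a, Sstr3 and Galr1) lower cAMP and restrain release. Ffar1 binds long-chain fatty acids such as palmitate directly, Gpr119 binds lipid amides and monoacylglycerols, and Ffar4, another long-chain fatty acid receptor, is known mainly from delta-cells in the mouse islet.

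The receptor genes lie on 8 chromosomes of the mouse genome (GRCm38). Ffar1 is a gene with 1 exon stretch at chr7:30857390-30861564 on the minus strand. Next to it on the same strand lie Ffar3 (chr7:30854330-30856178, a gap of 1211 bases) and Ffar2 (chr7:30818348-30823775, a further gap of 30554 bases), the receptors of short-chain fatty acids, with no other annotated gene between them. Gpr119 lies at chrX:48667979-48674478 on the minus strand and Gcgr at chr11:120530699-120538986 on the plus strand. The annotation places genes on the opposite strand over 5242 (AC165951.1) and 569 (AC174471.1) of the 5811 exonic bases of Glp1r, 584 of Chrm3 (Gm26861) and 135 of Gcgr (Gm11789). The library kit marks the strand, but whether it was used in counting is not given in the sources used here, so reads of such pairs cannot be told apart.

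The bases just upstream of 5 genes are shown because Ffar1, Gpr119 and Gcgr were raised by palmitate below and because both neighbours of Ffar1 had higher values in the same comparisons. They were taken from RefSeq (GRCm38.p6), read 5' to 3' on the strand of the gene, from up to 250 bases before the RefSeq start to the last base before the annotated gene. The stretches cover chr7:30861565-30861720 for Ffar1, chr7:30856179-30856428 for Ffar3, chr7:30823776-30824025 for Ffar2, chrX:48674479-48674728 for Gpr119 (all minus strand) and chr11:120530477-120530698 for Gcgr (plus strand). Capitals mark matches on either strand to the cAMP response element TGACGTCA, the E-box CACGTG, the TATA box TATAAA, the GC box GGGCGG or the CCAAT box.
Ffar1: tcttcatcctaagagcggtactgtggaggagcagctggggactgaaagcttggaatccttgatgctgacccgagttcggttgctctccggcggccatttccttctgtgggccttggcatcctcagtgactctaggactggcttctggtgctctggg
Ffar3: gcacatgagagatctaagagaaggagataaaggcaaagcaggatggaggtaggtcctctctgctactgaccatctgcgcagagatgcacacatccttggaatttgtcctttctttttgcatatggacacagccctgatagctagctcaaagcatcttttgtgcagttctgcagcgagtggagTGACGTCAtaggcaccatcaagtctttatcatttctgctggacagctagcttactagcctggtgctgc
Ffar2: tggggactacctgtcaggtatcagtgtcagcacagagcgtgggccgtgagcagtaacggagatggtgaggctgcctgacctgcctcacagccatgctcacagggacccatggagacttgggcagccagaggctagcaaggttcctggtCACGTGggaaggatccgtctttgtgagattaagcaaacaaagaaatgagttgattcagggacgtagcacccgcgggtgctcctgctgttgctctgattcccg
Gpr119: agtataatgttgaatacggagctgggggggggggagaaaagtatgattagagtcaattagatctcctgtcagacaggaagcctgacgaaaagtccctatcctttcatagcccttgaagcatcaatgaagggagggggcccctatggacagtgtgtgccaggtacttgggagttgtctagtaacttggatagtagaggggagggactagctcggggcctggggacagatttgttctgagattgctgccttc
Gcgr: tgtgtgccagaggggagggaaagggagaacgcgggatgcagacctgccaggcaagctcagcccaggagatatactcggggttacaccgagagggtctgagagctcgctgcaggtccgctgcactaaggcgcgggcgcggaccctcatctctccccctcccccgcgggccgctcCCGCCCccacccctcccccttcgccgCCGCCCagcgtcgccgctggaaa
None of the 5 motifs occurred in the 156 bases of Ffar1 or the 250 bases of Gpr119. Ffar3 held 1 cAMP response element, Ffar2 held 1 E-box and Gcgr held 2 GC boxes in its 222 bases, of which 69.8% were G or C. Among 32851 promoter windows of the same length, a cAMP response element occurred in 1.55%, an E-box in 6.02% and, for the length of Gcgr, a GC box in 31.8%. These matches describe letters only. The stretch of Gcgr lies within Gm11789, a gene annotated on the opposite strand. The RefSeq starts of Ffar1 and Gcgr lie inside the annotated gene, which left 156 and 222 of the 250 bases. Those of Sstr3 and Adra2a lie further inside and left no bases, so none is shown, and Gipr is named only.

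Library totals ran from 18214719 to 35001979 counts. Batch 2 held far less acinar RNA than batch 1: all 9 acinar markers were lower, with a median log2 difference of -4.44, while all 11 beta-cell markers found (Ffar1 among them) were higher, with a median of 0.59. Of 8 alpha-cell markers, 5 were lower and 1 was higher in batch 2. The defining markers of beta-, alpha- and delta-cells (Ins1, Ins2, Gcg and Sst) had counts in every library. In RNA from mixed islet cells, fewer cells of a type and less RNA per cell cannot be told apart.

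Per unit of transcript length, Glp1r was by far the most abundant of the receptors. Its deposited TPM (a value scaled by transcript length and library) ranged from 205 to 443 with a median of 324 over 24 libraries, and it took 38.2% to 49.7% of the summed TPM of the 10 genes. It ranked first in 24 of 24 libraries and exceeded Ffar1 by 2.91- to 4.88-fold. Ffar1 (median 91.6 TPM), Adra2a (88.6 TPM) and Gipr (80.3 TPM) followed and could not be ordered: Ffar1 exceeded Adra2a in 13 of 24 libraries and Adra2a exceeded Gipr in 12 of 24. The place of Ffar1 went with the batch, since it exceeded Adra2a in 3 of 12 libraries of batch 1 and 10 of 12 of batch 2, and by batch medians it was the fourth gene in batch 1 (70.1 TPM) and the second in batch 2 (105.8 TPM).

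Sstr3, the somatostatin receptor of beta-cell cilia, came next at a median of 63.5 TPM and was below Gipr in 21 of 24 libraries. Galr1, the galanin receptor (37.7 TPM), was below Sstr3 and above Gcgr (26.9 TPM) in all 24 libraries. Gcgr exceeded Gpr119 (20.6 TPM) in 23 of 24 libraries. Gpr119 and the muscarinic receptor Chrm3 (19.4 TPM) did not separate, with Gpr119 higher in 15 of 24. Ffar4 was the lowest in every library, at 5.35 to 13.002 TPM, and rested on 63 to 196 counts per library, against 8842 to 24077 counts for Glp1r.

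**Figure D1:**
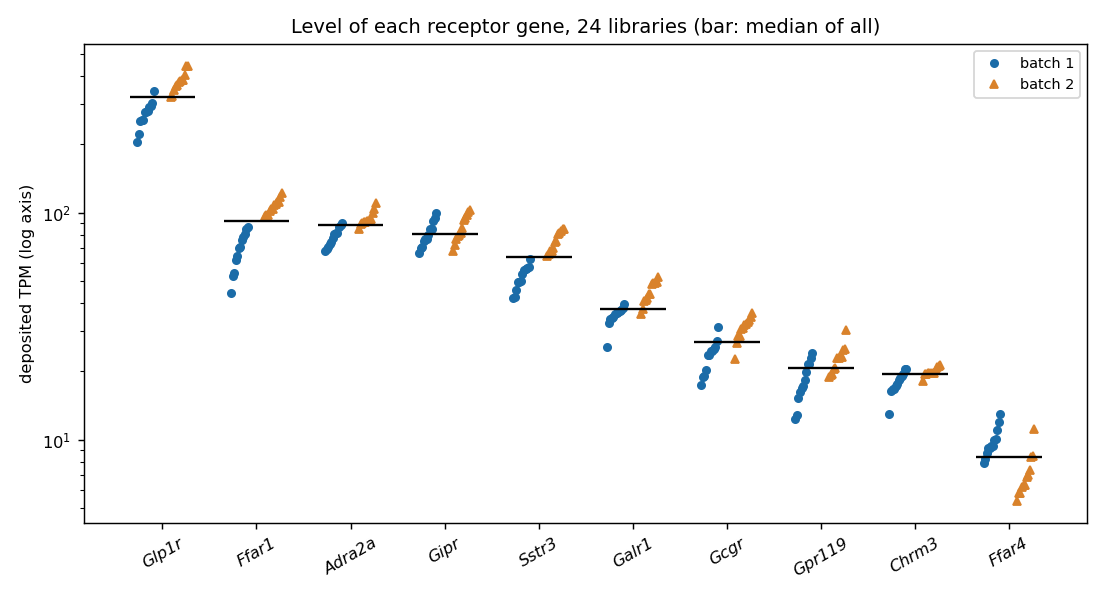
Deposited TPM of the 10 receptor genes (log axis) in 24 libraries, with circles for batch 1, triangles for batch 2 and a bar at the median of all libraries. Glp1r stands above the others in every library at a median of 324 TPM. Ffar1, Adra2a and Gipr overlap, with medians from 80.3 to 91.6, and Ffar4 is lowest at a median of 8.40.

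Sstr3, Adra2a and Chrm3 had the highest medians of their families. Galr1 had a relative at a similar level, and Ffar4 had relatives at higher levels. Among somatostatin receptors, Sstr2 (2.48 TPM), Sstr5 (0.594) and Sstr1 (0.551) had medians far under that of Sstr3, and Sstr4 had a median of 0. The other alpha-2 adrenergic receptors, Adra2b and Adra2c, also had medians of 0 TPM. Chrm4 reached 6.15 TPM beside Chrm3, whereas Chrm1, Chrm2 and Chrm5 stayed at 0 to 0.618 TPM in all libraries. Galr3 had a median of 36.8 TPM, close to the 37.7 of Galr1, and Galr2 had 0.269. Ffar3 (29.8 TPM) and Ffar2 (26.4 TPM) both had medians above that of Ffar4 and below that of Ffar1 (91.6 TPM).

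The first comparison asked whether palmitate altered the receptors in Ctr cells. Called as raised were Ffar1, by 0.27 ± 0.06 (log2 fold change ± SE, n = 6 libraries a group), and Gpr119, by 0.33 ± 0.10. These are increases of 1.21- and 1.25-fold. None of the 10 was called as lowered, and Ffar4, also a lipid receptor, had -0.11 ± 0.16. With 2 of 10 raised, the receptors may be set against the 15.5% of all tested genes that were raised. Levels are given below as CPM (counts relative to library size) after TMM scaling, which suits comparison of 1 gene between libraries but not of genes with each other.

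Ffar1 measured 74.7 CPM in the lowest, 117 in the median and 157 in the highest library of Ctr BSA, and 98.8, 139 and 179.8 CPM in Ctr PA. The groups overlapped only because the batches differed. In batch 1 it ranged from 74.7 to 88.6 CPM in Ctr BSA and from 98.8 to 109 in Ctr PA, and in batch 2 from 145 to 157 and from 168 to 179.8 CPM. Every PA library thus lay above every BSA library of its batch, as for 7.42% of all tested genes (raised, no overlap in either batch). By edgeR's quasi-likelihood test with Benjamini-Hochberg adjustment over all 15916 genes, the adjusted p was 7.21e-04.

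Gpr119 measured 10.2 CPM in the lowest, 14.5 in the median and 20.7 in the highest library of Ctr BSA, and 14.8, 16.998 and 27.2 CPM in Ctr PA. In batch 1 every PA library (14.8 to 17.5 CPM) was above every BSA library (10.2 to 13.3 CPM), whereas in batch 2 the ranges of 16.4 to 27.2 and 15.6 to 20.7 CPM overlapped. For separation in a single batch the share of all genes was not computed. The edgeR adjusted p of Gpr119 was 0.0191. The call depended on single libraries: it was lost without S9 of Ctr BSA (0.27, edgeR adjusted p = 0.0564) and without S23 of Ctr PA (0.23, edgeR adjusted p = 0.0681), the library in which Gpr119 was highest.

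The other 8 receptors were not called in Ctr cells. Gipr, the receptor of the gut hormone GIP, fell short of the threshold at -0.19 ± 0.09 (95% interval -0.37 to -0.01, edgeR adjusted p = 0.102), and passed it without S5 of Ctr BSA (-0.25, edgeR adjusted p = 0.0286) and with runs of 4 library numbers as assumed preparation blocks (-0.19, edgeR adjusted p = 0.0320). Its values were 83.3, 115 and 129 CPM in Ctr BSA and 82.01, 99.2 and 102 CPM in Ctr PA (lowest, median, highest). All 3 PA libraries of batch 2 (98.5 to 102 CPM) were under the 3 BSA libraries (115 to 129 CPM), and batch 1 overlapped. How many of all genes were lowered this way in a single batch was not computed. Glp1r, the target of GLP-1 drugs, had -0.11 ± 0.07 (interval -0.25 to 0.03), with 508 to 914 CPM in Ctr BSA and 454 to 835 in Ctr PA. The glucagon receptor Gcgr had 0.16 ± 0.09 (interval -0.02 to 0.35), from 15.98 to 30.1 CPM in Ctr BSA to 21.8 to 32.6 in Ctr PA. Sstr3 had 0.12 ± 0.06 (interval -0.01 to 0.25), and it passed the threshold without S1 of Ctr BSA (0.18, edgeR adjusted p = 0.0197). Chrm3 had 0.10 ± 0.06, Galr1 -0.06 ± 0.08, Adra2a -0.11 ± 0.07 and Ffar4 -0.11 ± 0.16, whose interval of -0.45 to 0.22 left the most room.

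**Figure D2:**
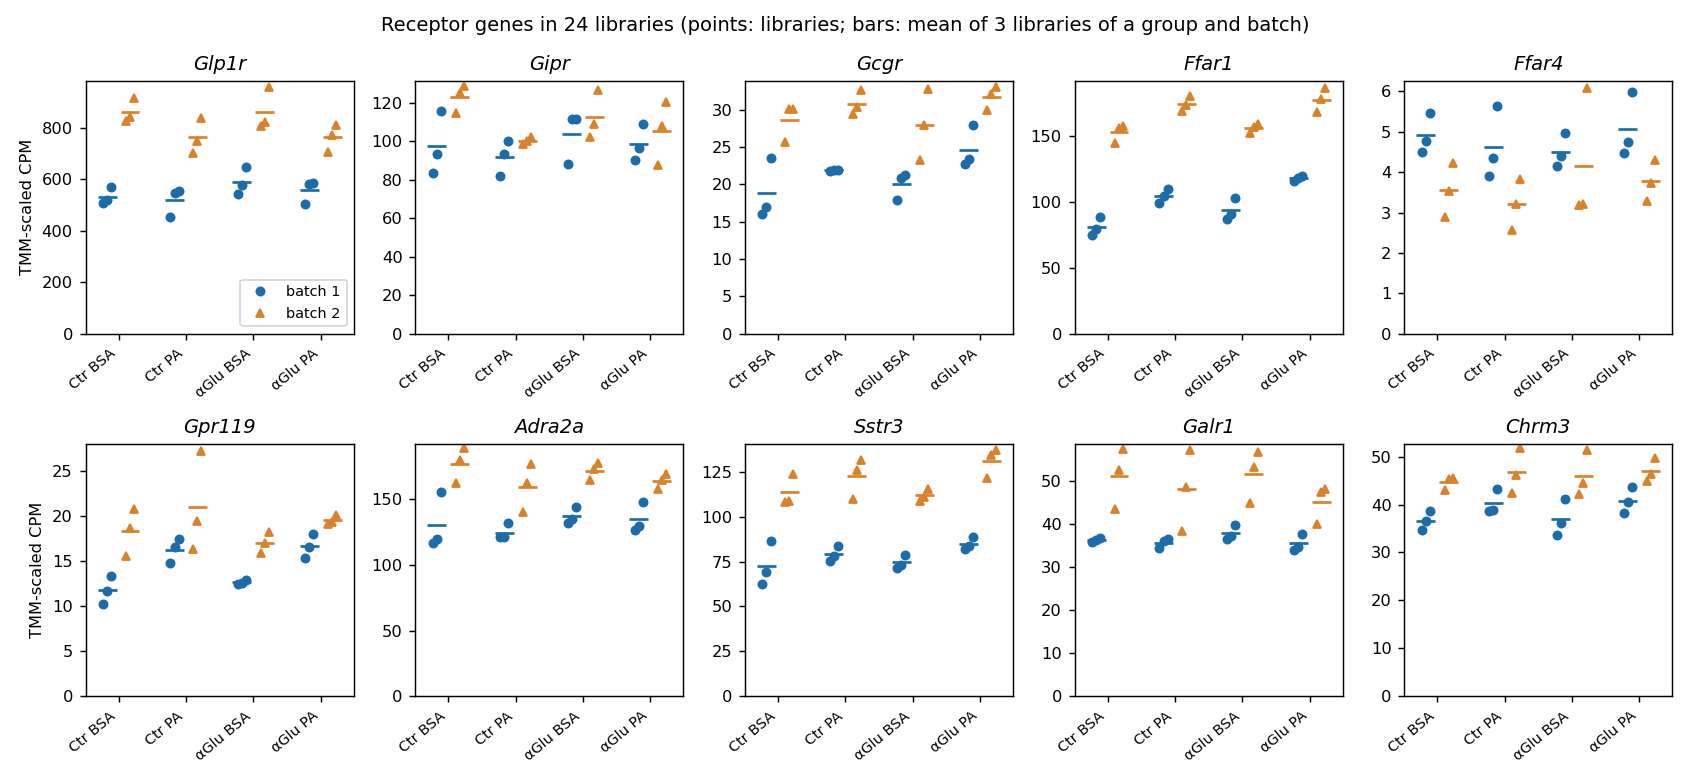
TMM-scaled CPM of each receptor gene (vertical axes from 0) by group, with circles for libraries of batch 1, triangles for batch 2 and bars at the mean of the 3 libraries of a group and batch. For Ffar1 the PA libraries lie above the BSA libraries of the same ASO and batch throughout, and for 9 of the 10 genes batch 2 is higher on this scale, an order that turns for 7 of them when libraries are scaled to beta-cell markers.

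In αGlu cells the same comparison called 4 receptors as raised and none as lowered. Ffar1 (0.26 ± 0.06, edgeR adjusted p = 0.00123) and Gpr119 (0.30 ± 0.10, edgeR adjusted p = 0.0304) were joined by Sstr3 (0.21 ± 0.06, edgeR adjusted p = 0.0156) and Gcgr (0.24 ± 0.09, edgeR adjusted p = 0.0442). Among all tested genes 14.4% were raised. The increases ranged from 1.15-fold for Sstr3 to 1.23-fold for Gpr119.

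Ffar1 measured 87.1, 127 and 159 CPM in αGlu BSA and 115, 144 and 186 CPM in αGlu PA (lowest, median, highest of 6). Gpr119 measured 12.5, 14.4 and 18.2 CPM in αGlu BSA and 15.3, 18.5 and 20.1 CPM in αGlu PA. Sstr3 measured 71.7, 93.7 and 116 CPM in αGlu BSA and 81.8, 105 and 137 CPM in αGlu PA. For these 3 genes each PA library lay above each BSA library of its batch, in both batches, which held for 11.3% of all tested genes. For Ffar1 the gap within batches was widest in batch 1, where BSA reached 102 CPM and PA began at 115. Gcgr measured 17.9, 22.3 and 32.8 CPM in αGlu BSA and 22.7, 29.0 and 33.0 CPM in αGlu PA. Its ranges overlapped in batch 2 (23.2 to 32.8 CPM in BSA, 30.01 to 33.0 in PA) but not in batch 1 (17.9 to 21.3 and 22.7 to 27.9 CPM), a pattern whose share of all genes was not computed.

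The calls of Ffar1 and Sstr3 were kept without any 1 library. That of Gpr119 was lost without S2, S4, S8, S10 or S18, with edgeR adjusted p from 0.0510 (S2) to 0.0819 (S4) and log2 fold changes of 0.25 to 0.30. That of Gcgr was lost in 10 of 24 omissions (S3, S4, S6, S8, S10, S12, S16, S18, S22 or S24), with values down to 0.19 and an adjusted p up to 0.127 without S12. The call of Gcgr was also lost in 7 of 12 alternative settings, among them upper-quartile scaling and no filter. Those of Gpr119 and Sstr3 were each lost in 5 of 12 and that of Ffar1 in 3 of 12. The remaining 6 receptors had log2 fold changes from -0.14 ± 0.08 (Galr1) to 0.08 ± 0.06 (Chrm3). Galr1 was lowered with the assumed blocks (-0.14 ± 0.05, edgeR adjusted p = 0.0193). Glp1r had -0.13 ± 0.07 (interval -0.27 to 0.02) and Gipr -0.08 ± 0.09 (interval -0.26 to 0.10).

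**Figure D3:**
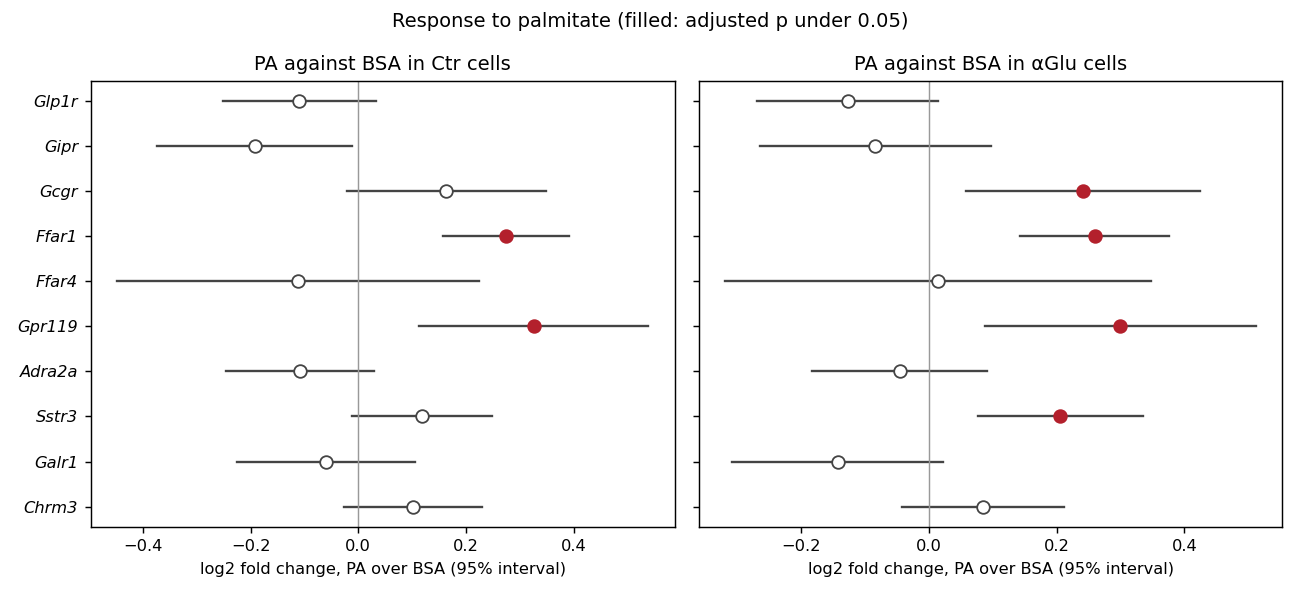
Log2 fold change of PA over BSA with its 95% interval for each receptor gene in Ctr cells (left) and αGlu cells (right), filled where the edgeR adjusted p was under 0.05. Ffar1 and Gpr119 are raised in both panels (0.27 and 0.33, 0.26 and 0.30), Gcgr and Sstr3 are filled in the right panel alone, and the difference between panels was called for no gene.

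The difference between the PA responses of αGlu and Ctr cells was tested directly. It was called for 0 of 10 receptors, as for 0% of all genes, and reached an unadjusted p under 0.05 for 0 receptors and 332 genes in edgeR, with 0 genes called by DESeq2. The difference was -0.02 for Ffar1 (interval -0.18 to 0.15), -0.03 for Gpr119 (-0.33 to 0.27), 0.09 for Sstr3 (-0.10 to 0.27) and 0.08 for Gcgr (-0.18 to 0.34). That Gcgr and Sstr3 passed the threshold in αGlu cells alone is thus not a shown difference between the cells.

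In view of this, both responses were averaged, a comparison added after the values were seen. PA raised Ffar1 by 0.27 ± 0.04 (edgeR adjusted p = 7.80e-06), Gpr119 by 0.31 ± 0.07 (edgeR adjusted p = 0.00110), Sstr3 by 0.16 ± 0.04 (edgeR adjusted p = 0.00434) and Gcgr by 0.20 ± 0.06 (edgeR adjusted p = 0.0112). These are 4 of 10 against 23.4% of all genes raised. None was called as lowered in the main model, against 22% of all genes. Both incretin receptors were close to the threshold from below, Glp1r at -0.12 ± 0.05 (edgeR adjusted p = 0.0507) and Gipr at -0.14 ± 0.06 (edgeR adjusted p = 0.0729). DESeq2 called both as lowered, and upper-quartile scaling and the filter of at least 10 counts in 12 libraries each called Glp1r as lowered. Glp1r passed the threshold in 10 and Gipr in 4 of 24 omissions of 1 library. For Glp1r these were S3, S4, S5, S6, S9, S11, S12, S14, S22 and S23, with values of -0.13 each. For Gipr they were S5, S6, S12 and S24, with -0.16 to -0.17. Chrm3 also passed without S19 (0.11) or S22 (0.11), and Galr1 without S23 (-0.13). With the assumed preparation blocks 8 receptors were called, the 4 above with Chrm3 raised (0.09, edgeR adjusted p = 0.0460) and Glp1r (-0.12, edgeR adjusted p = 0.0186), Gipr (-0.14, edgeR adjusted p = 0.0211) and Galr1 (-0.10, edgeR adjusted p = 0.0117) lowered. That fit also called more genes at large, 4061 raised and 3867 lowered of 15916.

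Within each batch alone, with 3 libraries a group, all 4 kept their sign. The averaged response of Ffar1 was 0.34 ± 0.06 in batch 1 (edgeR adjusted p = 0.00106) and 0.19 ± 0.04 in batch 2 (edgeR adjusted p = 0.00539). Gpr119 had 0.42 ± 0.08 in batch 1 (edgeR adjusted p = 0.00268) and 0.20 ± 0.11 in batch 2 (edgeR adjusted p = 0.200). Sstr3 had 0.15 ± 0.07 and 0.17 ± 0.06, called in batch 2 alone (edgeR adjusted p = 0.163 and 0.0454). Gcgr had 0.25 ± 0.10 and 0.15 ± 0.08, called in neither (edgeR adjusted p = 0.0741 and 0.206). Glp1r and Gipr were negative in both batches, at -0.07 ± 0.07 and -0.17 ± 0.06 for Glp1r and -0.09 ± 0.09 and -0.19 ± 0.08 for Gipr. The difference between the PA responses of batch 2 and batch 1 was called for 0 of 10 receptors by edgeR, against 0.0565% of all genes. It was largest in evidence for Ffar1 (-0.16, interval -0.31 to -0.02, unadjusted p = 0.0306 and edgeR adjusted p = 0.758), the 1 receptor under an unadjusted 0.05, beside 983 of all genes, and DESeq2 called none of the 10. With scaling to beta-cell markers, all-gene calls for this difference went from 5 raised and 4 lowered to 15 and 0, with no receptor among them. The value of Ffar1 was then -0.0017.

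**Figure D4:**
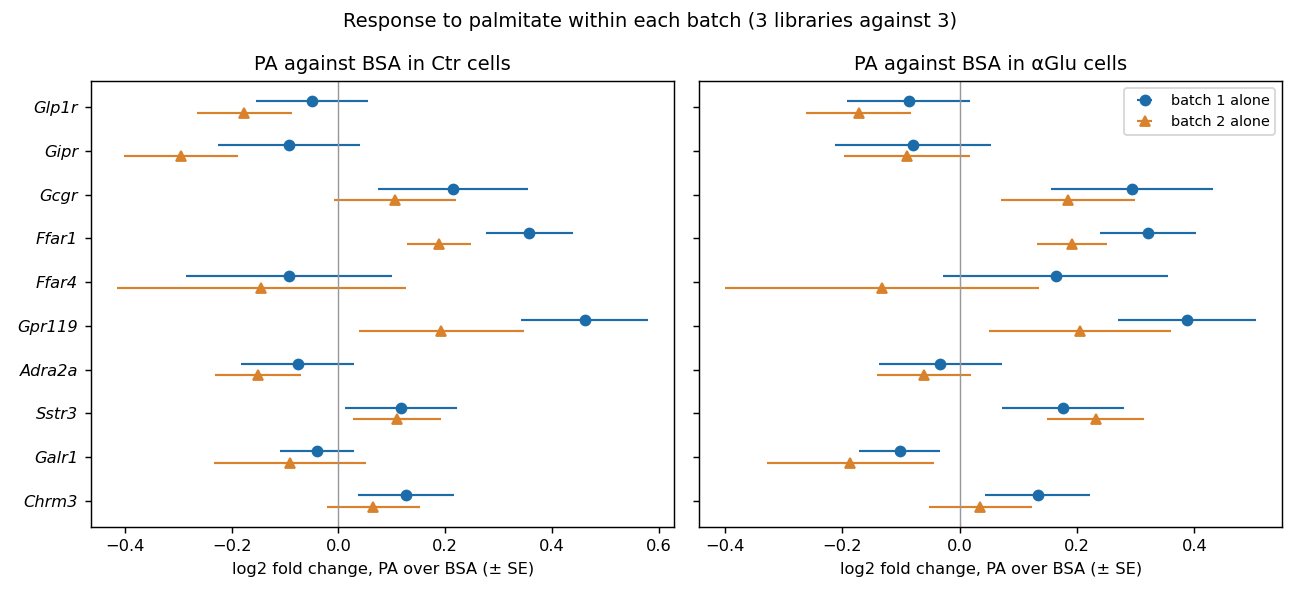
Log2 fold change of PA over BSA (± SE) fitted in batch 1 alone (circles) and batch 2 alone (triangles), 3 libraries a group, in Ctr cells (left) and αGlu cells (right). Ffar1, Gpr119, Sstr3, Gcgr and Chrm3 lie to the right of 0 and Glp1r, Gipr, Adra2a and Galr1 to the left in both batches and panels.

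Markers of other cell types moved with PA. In Ctr cells 6 of 7 tested fibroblast and stellate markers, 7 of 9 acinar and 6 of 8 macrophage markers fell (14.5% of all genes). In αGlu cells 4, 6 and 1 did (14.2% of all genes). Of 7 ductal markers 3 fell in either, and no endothelial or glial marker was called. The summed acinar markers ranged from 413 to 21811 CPM in Ctr BSA and from 222 to 8192 CPM in Ctr PA, and the summed fibroblast and stellate markers from 72.1 to 423 and from 8.25 to 47.3 CPM. In αGlu cells the acinar sums were 501 to 13524 in BSA and 316 to 7324 in PA, and the fibroblast and stellate sums 46.3 to 944 and 5.70 to 162 CPM. Beta-cell markers moved both ways: with Ffar1, 4 of 11 rose and 3 fell in Ctr cells, and the mean log2 CPM of 7 of them (without Ins1, Ins2, Iapp and Ffar1) was 8.58 ± 0.40 in Ctr BSA and 8.64 ± 0.29 in Ctr PA (SD, n = 6). The part of cell make-up in the receptor changes was not tested. When libraries were scaled to those 7 genes, which lowered the median of all genes by 0.06, the calls were Ffar1 and Gpr119 raised with Gipr and Adra2a lowered in Ctr cells, and Ffar1 raised with Glp1r lowered in αGlu cells, where the responses of Gpr119, Sstr3 and Gcgr stayed positive but were no longer called. The raised share of all calls went from 51.7% to 33.0% in Ctr cells and from 50.4% to 31.4% in αGlu cells. In the averaged response, Ffar1 and Gpr119 were then raised and Glp1r, Gipr, Adra2a and Galr1 lowered, and the raised share of all calls went from 51.5% to 33.8%.

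The second question was whether the αGlu ASO altered the receptors. In BSA, αGlu against Ctr called 0 of 10 receptors and 0% of all genes. In PA it likewise called 0 of 10 and 0%. At an unadjusted p under 0.05 edgeR had 1 receptor and 461 genes in BSA and 0 receptors and 538 genes in PA, and DESeq2 called no receptor but 6 raised and 2 lowered genes in BSA and 1 raised and 29 lowered in PA. The receptor in question was Ffar1, at 0.12 ± 0.06 in BSA (interval 0.00 to 0.23, unadjusted p = 0.0497, edgeR adjusted p = 1) and 0.10 ± 0.06 in PA (interval -0.01 to 0.22). Its libraries overlapped when taken unpaired, with 74.7 to 157 CPM in Ctr BSA and 87.1 to 159 in αGlu BSA. In batch 1 the ranges were 74.7 to 88.6 and 87.1 to 102 CPM, and in batch 2 145 to 157 and 152 to 159 CPM. These ranges and the main model leave out any pairing of libraries by preparation. The library numbers fall into 6 runs of 4 with 1 library of each group. If each run is taken as 1 preparation, which the labels do not state, Ffar1 was higher with αGlu in 6 of 6 runs in BSA and in 5 of 6 in PA. Gipr, Gcgr, Ffar4, Adra2a and Sstr3 were likewise higher in 5 of 6 runs in PA, and Galr1 in 5 of 6 in BSA. Galr1 was higher in only 2 of 6 in PA, and Gipr and Ffar4 in 2 of 6 in BSA. The share of all genes with such counts was not computed. A fit with these runs as blocks, added after the values were seen, gave 0.12 ± 0.05 in BSA (unadjusted p = 0.0299, edgeR adjusted p = 1) and called no receptor for the ASO, beside 9 raised genes in BSA and none in PA. Glp1r had 0.07 ± 0.07 in BSA and 0.05 ± 0.07 in PA, Gcgr 0.03 ± 0.09 and 0.11 ± 0.09, and Gpr119 -0.01 ± 0.10 and -0.03 ± 0.10. The other differences ran from -0.05 for Galr1 to 0.18 for Ffar4, both in PA. In BSA the intervals ran from -0.07 to 0.21 for Glp1r and from -0.28 to 0.39 for Ffar4. For Ffar4 a difference as large as the PA response of Ffar1 thus lies inside the interval. In PA the intervals of Ffar4 (-0.15 to 0.51) and Gcgr (-0.08 to 0.29) held such a difference too, and that of Gipr ended at 0.27.

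The largest differences in the set were between batches, and their direction depended on the scaling. After TMM scaling 9 of 10 receptors were higher in batch 2, against 26.1% of all genes, and Ffar4 was lower, against 25.4%, but with libraries scaled to 7 beta-cell markers 7 of these 9 turned sign (Glp1r, Gipr, Gcgr, Gpr119, Adra2a, Chrm3 and Galr1). Under that scaling the median of all genes shifted to -0.58, and the raised share of all calls went from 50.7% to 1.09%. Ffar1 had the largest log2 difference at 0.75 ± 0.04, or 1.68-fold (edgeR adjusted p = 5.77e-13), followed by Sstr3 (0.62 ± 0.04) and Glp1r (0.56 ± 0.05). Gcgr (0.49 ± 0.06), Galr1 (0.43 ± 0.06), Gpr119 (0.42 ± 0.07) and Adra2a (0.35 ± 0.05) were intermediate, and Chrm3 (0.26 ± 0.04) and Gipr (0.17 ± 0.06) had the least. Ffar1 ranged from 74.7 to 119 CPM in batch 1 and from 145 to 186 in batch 2, without overlap. Glp1r ranged from 454 to 646 and from 701 to 956 CPM, and Sstr3 from 62.3 to 88.6 and from 108 to 137 CPM, again without overlap. These ranges hold on the TMM scale, and the share of all genes without overlap between batches was not computed.

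Ffar4 was the exception, at -0.38 ± 0.11 (edgeR adjusted p = 0.00725), with 3.90 to 5.98 CPM in batch 1 and 2.58 to 6.08 CPM in batch 2. Its batch 2 libraries reached both the lowest and the highest value of the gene. Of the 11 beta-cell markers all were higher in batch 2 on the TMM scale, from 0.20 for Nkx6-1 to 0.91 for G6pc2. That range holds the values of all receptors higher in batch 2 except Gipr, with Ffar1 itself among the markers. With libraries scaled to 7 of them (without Ins1, Ins2, Iapp and Ffar1), Ffar1 alone remained called as higher (0.17), Glp1r was at -0.011, Gcgr at -0.085, Sstr3 at 0.05, and Gipr (-0.41), Ffar4 (-0.97), Gpr119 (-0.17), Adra2a (-0.23), Chrm3 (-0.33) and Galr1 (-0.16) were called as lower. Gipr was the weakest call of the main comparison and was lost without S5 (0.14, edgeR adjusted p = 0.0511) or S24 (0.15, edgeR adjusted p = 0.0506). What a batch stands for is not recorded, and the part of acinar RNA or islet cell make-up was not tested.

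**Figure D5:**
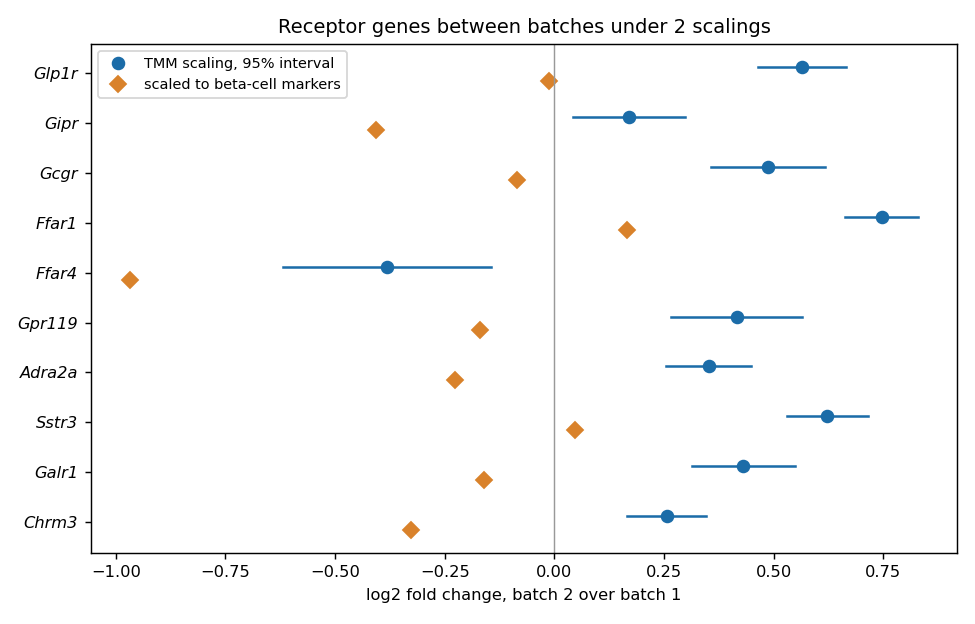
Log2 fold change of batch 2 over batch 1 for each receptor gene after TMM scaling (circles, with 95% intervals) and with libraries scaled to 7 beta-cell markers (diamonds). The scaling moves all values down by a similar amount, so Ffar1 goes from 0.75 to 0.17, Glp1r from 0.56 to -0.011 and Ffar4 from -0.38 to -0.97.

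Within the set, receptors differed in how they moved together. After centring on the mean of each batch, the Pearson correlation of log2 CPM over 24 libraries was highest for Gcgr with Sstr3 (0.76), Ffar1 with Gpr119 (0.75) and Ffar1 with Sstr3 (0.71). Glp1r went with Gipr (0.61). The lowest was that of Sstr3 with Galr1 (-0.41), and 33 of the 45 pairs were positive with a median of 0.17. All points share their libraries, and the PA effect is part of these values.

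The genes most like Ffar1 over the same libraries were Cplx2 (0.92), Cryzl2 (0.91) and Abca3 (0.90). Those of Sstr3 were Kcnj11 (0.92), which encodes the pore of the ATP-sensitive potassium channel, Mtch1 (0.91) and Rundc3a (0.91), and those of Gpr119 were Ocrl (0.90), Efcab1 (0.89) and Etv1 (0.88). Gipr was most like Baiap3 (0.89), Phf2 (0.88) and Carmil3 (0.87), and Glp1r most like Pitpnm3, Ece1 and Ggcx (each 0.81). Chrm3 had Paip2 (0.85), Sec23b (0.79) and Gstm1 (0.78), and Galr1 had Tmsb15b1 (0.81), H2-Q2 (0.81) and Fmo4 (0.78). For Adra2a, Zcchc3 (0.80), Slc37a4 (0.80) and Sec31a (0.74) came first. The lowest first values were those of Ffar4, with 2610035D17Rik (0.67), Fnta (0.67) and Agap2 (0.66). These are descriptions over 24 libraries and 15915 other genes.

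The neighbours of Ffar1 had values like its own. Ffar2 rose with PA by 0.39 ± 0.12 in Ctr cells (edgeR adjusted p = 0.0185) and by 0.41 ± 0.12 in αGlu cells (edgeR adjusted p = 0.0130). Ffar3, the gene with the cAMP response element shown above, had 0.22 ± 0.09 in Ctr cells (edgeR adjusted p = 0.0614) and rose by 0.25 ± 0.09 in αGlu cells (edgeR adjusted p = 0.0318). The batch-centred correlation with Ffar1 was 0.70 for each. Between batches Ffar2 had 0.57 ± 0.09 and Ffar3 0.63 ± 0.06 on the TMM scale.

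Among 81 other islet receptors, 50 were tested. In Ctr cells 6 of 50 rose and 7 fell, near the 15.5% of all genes raised and 14.5% lowered, with a median log2 fold change of -0.11 (all genes 0.01). In αGlu cells 8 of 50 rose and 9 fell, against 14.4% and 14.2% of all genes, with a median of -0.07. Vipr2, a Gs-coupled receptor of the peptides VIP and PACAP, rose by 1.28 ± 0.14 in Ctr and 1.42 ± 0.14 in αGlu cells. The adenosine receptor Adora1 rose by 0.52 and 0.48, the calcium-sensing receptor Casr by 0.34 and 0.30, and the oxytocin receptor Oxtr by 0.44 and 0.29 (Ctr and αGlu cells). The PACAP receptor Adcyap1r1 fell (-2.82 and -2.74), as did the corticotropin-releasing hormone receptor Crhr1 (-1.32 and -1.31), Vipr1 (-0.30 and -0.25) and the purine receptor P2ry2 (-1.28 and -2.03). Both Vipr2 and Adcyap1r1 thus changed more than any of the 10 receptors, at medians of 4.53 and 0.610 TPM.

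Downstream of the receptors, 55 genes for G proteins, adenylyl cyclases, cAMP effectors, phospholipase C, calcium and desensitization were all tested. In Ctr cells 7 of 55 rose (15.5% of all genes) and 12 fell (14.5% of all genes). In αGlu cells 4 of 55 rose (14.4% of all genes) and 12 fell (14.2% of all genes), and the medians were -0.06 and -0.05. The inositol trisphosphate receptor Itpr2 rose by 0.47 and 0.50, the inhibitory G protein subunit Gnai2 by 0.30 and 0.35, and the calcium-stimulated cyclase Adcy8 by 1.02 and 0.76. The kinase anchor Akap5 fell (-2.21 and -2.34), as did the cAMP sensor Rapgef4 (-0.24 and -0.25) and Rgs16, which turns off Gi and Gq signals (-0.50 and -0.52).

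Of 10 genes for ligands and their breakdown, 8 were tested. Dpp4, the protease that inactivates GLP-1 and GIP, rose by 0.55 ± 0.07 and 0.47 ± 0.07 and was the only one raised. In Ctr cells 4 of 8 fell, against 14.5% of all genes, and in αGlu cells 3 of 8, against 14.2%. They included Npy (-1.47 and -1.70), the protease Mme (-3.37 and -3.09) and the hormone Sst (-0.69 and -0.56), the ligand of Sstr3. Gcg, the source of glucagon and GLP-1, had 0.05 and 0.01 and was not called. No gene of the 3 lists was called for αGlu against Ctr in BSA or PA by edgeR.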

How the data were processed

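Dispersed mouse islet cells were profiled by stranded mRNA sequencing in 24 libraries. The authors processed reads in QIAGEN's portal (version 5.1), with GRCm38 as build per the submitters' processing notes. The sources used here do not give aligner, annotation release or filters. The deposited counts are reads on exons per gene. The deposited TPM is scaled by gene length and library, and the deposited CPM, treated as a signal, served only for the authors' library factors. Columns of RPKM were left out.

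In R 4.3.3, counts were scaled by TMM and filtered by filterByExpr, and edgeR 4.0.16 fitted a quasi-likelihood model with a term for each group and for batch to all 24 libraries (limma 3.58.1 and DESeq2 1.42.0 were also used). Genes were called at a Benjamini-Hochberg adjusted p below 0.05 over 15916 genes. The difference between the PA responses of the batches used a model of the 8 combinations of group and batch. Standard errors were derived from F, and log2 CPM used a prior count of 2. Totals were 18214719 to 35001979 counts, without molecular identifiers, so counting error alone understates the spread. The model was tested on simulated data. The members, lists and tests were chosen with earlier results of these data known. All 10 receptors were named in every comparison, with up to 3 genes of smallest p per list, comparison and direction, plus Sstr, Adra2, Chrm, Galr and Ffar relatives, the neighbours of Ffar1 and Gcg, chosen after their values were seen. The genes most like Gcgr across libraries are not reported here. Alternatives were DESeq2, upper-quartile scaling, the authors' factors, scaling to 7 beta-cell markers, no filter, at least 10 counts in 12 libraries, no batch term, the 2 groups alone, each batch alone, a preparation block assumed from runs of 4 library numbers (added after seeing the data), the study's threshold (fold above 2, unadjusted p below 0.05) and omission of each library.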

Additional observations from a re-analysis of the deposited data

How the results depend on the processing

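The groups share no replicate numbers, and the labels tie no libraries to a preparation. With a replicate block assumed from runs of 4 library numbers, added after seeing the data, the averaged response called 8 receptors, PA called 3 in Ctr and 5 in αGlu cells, and no receptor lost a call. Of 15916 genes the same fit called 4061 raised and 3867 lowered in the averaged response. It called 2872 and 2745 in Ctr cells, and 2731 and 2691 in αGlu cells. Deviations from the means of group and batch correlated at 0.018 to 0.370 within runs (36 pairs, median 0.152, 25 over 0.1), and 23 of 24 libraries correlated best with their own run. Pairs from other runs of the same batch and other groups had -0.31 to 0.12 (72 pairs, median -0.08, 1 over 0.1). The deviations within a group and batch sum to 0, so both kinds of pairs are not independent. The block called 31 raised and 50 lowered genes for the difference between batches in PA response. The count of receptors called for PA in Ctr cells (2) became 4 with scaling to beta-cell markers, 1 with the 2 groups alone, and 0 without batch term, in batch 2 alone or at the study's threshold. In αGlu cells (4) it became 2 with scaling to beta-cell markers, 1 in batch 1 alone, and 0 without batch term, in batch 2 alone or at the study's threshold. The averaged response (4) became 1 without batch term, 2 in each batch alone and 0 at the study's threshold. For batch 2 against batch 1 (10), the study's threshold gave 0, and scaling to beta-cell markers, which lowered the median of all genes to -0.58, turned the sign of Gipr (-0.41), Gpr119 (-0.17), Adra2a (-0.23), Chrm3 (-0.33) and Galr1 (-0.16), and of Glp1r (-0.011) and Gcgr (-0.085), no longer called. Omission of 1 library gave 1 to 3 receptors in Ctr cells, 2 to 4 in αGlu cells, 4 to 6 averaged and 9 to 10 between batches. Receptor counts for both ASO comparisons and both differences of responses were 0 throughout. Other islet receptors (13 and 17) fell to 7 and 7 without batch term and 5 and 6 at the study's threshold. Signalling genes (19 and 16) fell to 9 and 9, and 4 and 4, and ligand genes (5 and 4) to 2 and 2 at the study's threshold. Over all genes, raised and lowered calls for PA (2467 and 2305 in Ctr cells, 2290 and 2253 in αGlu cells) became 1106 and 1206, and 1045 and 1226, without batch term. In batch 1 alone they were 1066 and 965, and 823 and 831, in batch 2 alone 920 and 896, and 932 and 972, and at the study's threshold 136 and 805, and 132 and 755. The averaged response (3722 and 3499) became 2153 and 2156 in batch 1 and 2098 and 2150 in batch 2. For the ASO in PA, 2 genes were lowered with scaling to beta-cell markers, 3 without filter and 6 with the groups alone, and the study's threshold called 23 raised and 102 lowered in BSA and 27 and 123 in PA. DESeq2 called 24 and 18 genes for the difference between batches in PA response. The cause was not tested. A batch alone has 3 libraries a group and no batch term leaves the batch spread in the error. Among recomputed log2 fold changes of the receptors, 2559 kept their direction and side of the threshold, 70 lost a call, 36 gained one, 98 changed sign without a call and the 7 above when called in the main model. Ffar4, at 63 to 196 counts, had the widest intervals.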
